A study of Mus musculus with 2 samples.

Results

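The genes described here encode the mitochondrial respiratory chain and ATP synthase from the nuclear genome. They were chosen by symbol: names that begin with Nduf, Uqcr, Atp5 or Cox followed by 4 to 8, together with Sdha to Sdhd, Cycs and Cyc1, on nuclear chromosomes and without pseudogene names. The rule found 70 genes with 88 accessible regions (ATAC-seq peaks), out of 16934 genes with 43864 peaks in a table of 63316 peaks. The rule uses names only, though it was set with earlier results of these data known.

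The respiratory chain sits in the inner mitochondrial membrane. Complex I (NADH dehydrogenase, the Nduf genes) and complex II (succinate dehydrogenase, the Sdh genes) pass electrons to ubiquinone, complex III (the Uqcr genes and Cyc1) passes them to cytochrome c (Cycs), complex IV (cytochrome c oxidase, the Cox genes) passes them to oxygen, and complex V (ATP synthase, the Atp5 genes) makes ATP from the proton gradient. Nearly all subunits are encoded in the nucleus, and their promoters are textbook targets of the nuclear respiratory factors NRF1 and GABP (an ETS factor) and of the coactivator Ppargc1a. In the heart, cardiomyocytes depend on this chain most, and several complex IV subunits exist as a widely expressed form and a heart and muscle form.

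ATAC-seq, which cuts and tags open chromatin with a transposase, was run on primary cardiac fibroblasts from mouse heart, all treated with TGF-β, the cytokine that turns fibroblasts into contractile, matrix-producing myofibroblasts. The SCR library (labelled NC) came from cells given scrambled siRNA, and the siPiezo2 library from cells given siRNA against Piezo2, a stretch-gated cation channel. There was 1 library per condition, so every difference below is between 2 libraries and has no replicate check. Strain, age and number of animals are not given in the labels, and the series' design text names a Tet3 knockout in place of the siRNA; the sample labels were followed.

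The value of a gene is its density, the sum over its peaks of the reads per kb in a window of 2000 bp around each peak, after the normalization of the authors. The ratio is log2((siPiezo2 + 1)/(SCR + 1)), so a negative value means less accessible DNA in the siPiezo2 library. Whole reads could be recovered from the densities, 4615335 in SCR and 2754046 in siPiezo2 over all windows, and gave an exact binomial 95% interval for each ratio, which covers counting error only. The member genes had a median of 84.5 reads in SCR and 51.5 in siPiezo2, and the median width of their intervals was 1.05 on the log2 scale, so differences under 1.5-fold were mostly not detectable at this depth. Over all genes with a peak the median ratio was −0.09 and 62.6% were below 0. The 14 peaks of Piezo2 itself added up to 334 reads per kb in SCR against 242 in siPiezo2, which does not measure the knockdown, because siRNA acts on the transcript. All 8 fibroblast marker genes had peaks, with a median ratio of −0.27. Peaks were also assigned to 3 of 7 cardiomyocyte, 4 of 6 endothelial, 2 of 6 macrophage and 5 of 6 smooth muscle and pericyte markers. Of these, Acta2 (−1.91) and Rgs5 (−1.16) were lower and Cdh5 (0.70) was higher past 1.5-fold. The other markers outside the fibroblast list lay between −0.25 (Csf1r) and 0.16 (Ryr2). The authors used Acta2 as a marker of myofibroblasts, so it does not stand for smooth muscle cells alone here. The part of other cell types in the values below was not tested.

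Short motifs known from promoters of respiratory and other housekeeping genes were counted in the promoters of the respiratory chain genes. RefSeq promoter windows (build GRCm38.p6, 250 bases before to 50 after the annotated start) were matched by symbol or older symbol for 56 of the 70 genes, giving 60 windows. The letters GCGCANGCG, the core of the NRF1 motif, stood on either strand in 20 of the 60 windows (33.3%), against 6.25% of all 32851 promoter windows, 11.8% of the windows of genes with a promoter peak and 11.5% of the windows of cytosolic ribosomal protein genes. The ETS letters CCGGAAG, which GABPA can bind, stood in 21.7% of the windows, against 8.86% of all windows, 15.9% of those of genes with a promoter peak and 34.4% of those of cytosolic ribosomal protein genes. The YY1 letters AAGATGGC stood in 11.7%, against 2.75%, 3.99% and 13.1% in the same groups. At least 1 of these 3 motifs was in 34 windows (56.7%), against 15.96% of all windows, 27.9% of those of genes with a promoter peak and 54.1% of those of cytosolic ribosomal protein genes. The share of the members was thus above that of the ribosomal genes for NRF1, below it for ETS and YY1, and close to it for the 3 motifs together.

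The SP/KLF letters GGGCGG were in 41.7% of the respiratory windows, between the 35.7% of all windows and the 61.1% of genes with a promoter peak, with cytosolic ribosomal protein genes at 62.3%. The TEAD letters GGAATG were in 10.0%, against 14.7%, 12.7% and 9.84%. Base composition was close to that of other accessible promoters: median GC content was 59.0% against 60.3%, and the median number of CpG dinucleotides was 20 in both. A match is a description of the letters and not a bound site. By complex, the NRF1 core was in 0 of 4 windows of complex I core subunits, 7 of 21 of accessory subunits and 2 of 7 of assembly factors. It was in 1 of 2 complex II windows, 2 of 3 complex III, 1 of 9 complex IV and 6 of 13 complex V windows, and in the 1 window of Cycs.

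**Figure D1:**
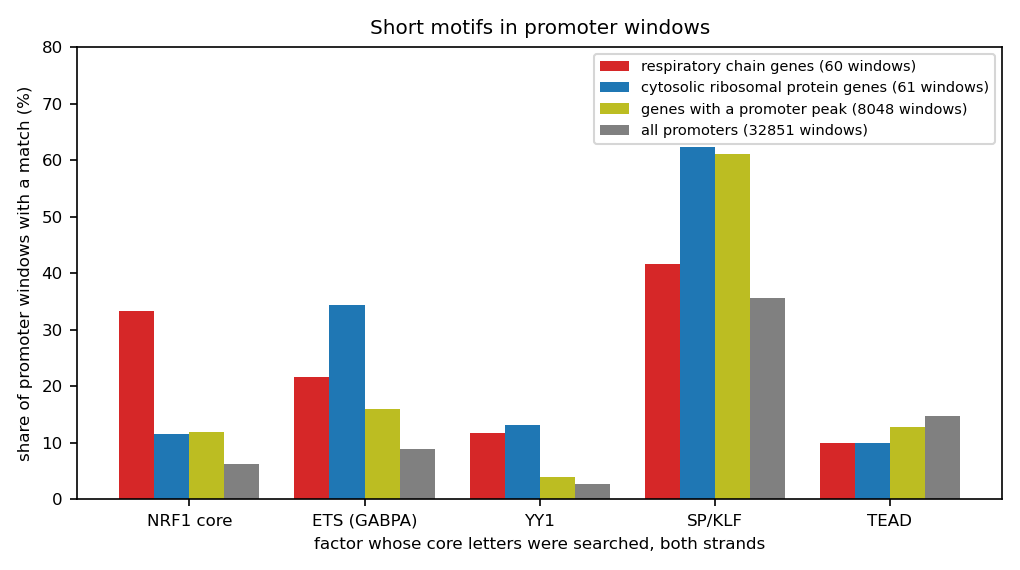
Share of promoter windows (vertical axis, %) that hold the core letters of each factor's motif on either strand (horizontal axis), for respiratory chain genes, cytosolic ribosomal protein genes, genes with a promoter peak and all promoters. The NRF1 bar of the respiratory chain genes is at 33.3%, against 11.5%, 11.8% and 6.25% in the other groups, while for ETS and YY1 the ribosomal bars are the highest, at 34.4% and 13.1%.

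The following sequences are the 250 bases before the RefSeq start of 6 of the genes, 5′ to 3′ on the strand of the gene, with matches to the NRF1, ETS and YY1 letters in capitals. The first 4 show the motifs in genes of different complexes, and the last 2 belong to the gene with the highest ratio and to a heart and muscle isoform, with none of these letters in the stretch shown. They lie at chr13:74350241-74350490, minus strand (Sdha), chr5:115348959-115349208, minus strand (Cox6a1), chr6:50566570-50566819, minus strand (Cycs), chr15:102671048-102671297, minus strand (Atp5mc2), chr3:32736813-32737062, plus strand (Ndufb5) and chr7:30183921-30184170, plus strand (Cox7a1), all in GRCm38.p6.
Sdha: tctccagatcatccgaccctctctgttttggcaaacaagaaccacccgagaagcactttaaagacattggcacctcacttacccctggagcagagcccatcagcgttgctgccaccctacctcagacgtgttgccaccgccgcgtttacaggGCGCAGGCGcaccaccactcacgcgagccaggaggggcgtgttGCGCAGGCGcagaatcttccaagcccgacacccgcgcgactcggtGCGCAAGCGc
Cox6a1: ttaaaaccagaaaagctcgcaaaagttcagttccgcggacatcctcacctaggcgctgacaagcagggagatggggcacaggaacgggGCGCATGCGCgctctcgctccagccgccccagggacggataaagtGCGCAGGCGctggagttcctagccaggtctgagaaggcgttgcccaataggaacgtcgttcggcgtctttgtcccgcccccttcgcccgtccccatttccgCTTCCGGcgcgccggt
Cycs: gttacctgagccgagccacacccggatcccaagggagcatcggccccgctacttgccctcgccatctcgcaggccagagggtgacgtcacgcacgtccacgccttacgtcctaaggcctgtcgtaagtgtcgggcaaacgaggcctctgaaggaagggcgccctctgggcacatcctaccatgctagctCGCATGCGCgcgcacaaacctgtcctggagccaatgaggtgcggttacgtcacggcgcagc
Atp5mc2: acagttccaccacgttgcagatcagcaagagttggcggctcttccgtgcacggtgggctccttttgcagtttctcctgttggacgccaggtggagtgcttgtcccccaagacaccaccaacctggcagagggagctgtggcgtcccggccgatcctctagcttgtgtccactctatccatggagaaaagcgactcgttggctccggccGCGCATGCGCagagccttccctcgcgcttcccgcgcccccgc
Ndufb5: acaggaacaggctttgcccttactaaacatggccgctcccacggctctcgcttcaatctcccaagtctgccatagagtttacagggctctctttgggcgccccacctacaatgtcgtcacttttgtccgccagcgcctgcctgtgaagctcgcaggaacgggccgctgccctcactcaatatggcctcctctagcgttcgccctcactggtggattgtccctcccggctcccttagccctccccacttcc
Cox7a1: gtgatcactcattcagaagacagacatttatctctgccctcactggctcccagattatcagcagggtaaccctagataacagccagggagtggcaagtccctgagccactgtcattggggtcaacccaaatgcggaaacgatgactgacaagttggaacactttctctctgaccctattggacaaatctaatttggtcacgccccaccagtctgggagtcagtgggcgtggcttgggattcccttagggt
Sdha, the flavoprotein of complex II, had 3 NRF1 matches, the last of them ending just before the start. Cox6a1, a complex IV subunit, had overlapping NRF1 matches on both strands, another NRF1 match nearer the start, and an ETS match close to the start. Cycs had 1 NRF1 match, and Atp5mc2, a membrane ring subunit of ATP synthase, had NRF1 letters on both strands of 1 stretch.

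The ratio between the libraries was also compared between genes with and without each motif. Among genes with a peak within 1 kb of their start, the median ratio over those peaks was −0.05 in 19 genes with the NRF1 letters and 0.04 in 36 genes without them. It was 0.02 in 13 genes with the ETS letters and −0.01 in 42 without, and −0.09 in 6 genes with the YY1 letters and 0.02 in 49 without. For SP/KLF the medians were 0.004 in 24 genes and 0.02 in 31, and for TEAD 0.22 in 5 genes and −0.01 in 50. The density in SCR was lower in genes with the NRF1 letters (median 25.9) than in those without (35.1). These are descriptions over genes with no test.

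The peaks of the respiratory chain genes were mostly at their start sites. Of the 88 peaks, 71 (80.7%, exact binomial 95% interval 70.9 to 88.3) lay within 1 kb of a start, against 33.7% of all peaks assigned to a gene. The table's promoter class held 48 peaks (54.5%, interval 43.6 to 65.2), against 21.1% of all assigned peaks, and its 5′ UTR class held 18 (20.5%, against 5.93%). Introns held 13 (14.8%, against 60.6%). This layout was close to that of cytosolic ribosomal protein genes, another set of housekeeping genes. They had 84.1% of 82 peaks within 1 kb, 61.0% in the promoter class and 14.6% in introns. Mitochondrial ribosomal protein genes had 63 of 84 peaks within 1 kb, but 41.7% in the promoter class and 27.4% in introns. A single peak was assigned to 57 of the 70 genes (81.4%), against 49.1% of all genes with a peak.

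**Figure D2:**
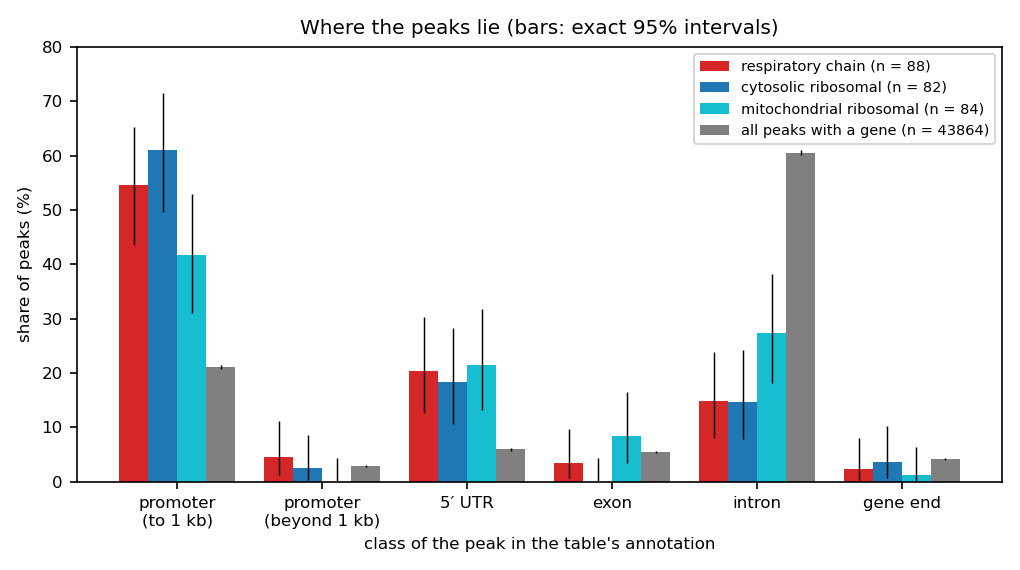
Share of peaks (vertical axis, %) in each class of the table's annotation (horizontal axis), with exact binomial 95% intervals as lines, for peaks of respiratory chain, cytosolic ribosomal and mitochondrial ribosomal genes and for all peaks assigned to a gene. Respiratory chain peaks are at 54.5% in the promoter class and 14.8% in introns, and all assigned peaks at 21.1% and 60.6%.

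Respiratory chain peaks were called in both libraries more often than peaks in general. The authors' peak calls marked 52 of the 88 (59.1%, interval 48.1 to 69.5) as found in both libraries, against 36.8% of all assigned peaks. Within 1 kb of a start these were 50 of 71 (70.4%, interval 58.4 to 80.7), against 55.9% of all such peaks. In the promoter class they were 36 of 48 (interval 60.4 to 86.4), against 60.4% of all promoter-class peaks. Beyond 1 kb they were 2 of 17 (11.8%, interval 1.46 to 36.4), against 27.0% of all such peaks. Of all 88 peaks, 33 (37.5%, against 61.2% of all assigned peaks) were called in SCR only and 3 (3.41%, against 1.99%) in siPiezo2 only. The siPiezo2-only peaks were at the starts of Ndufc2 and Ndufa10, which encode complex I accessory subunits, and in the first intron of Ndufaf2, which encodes a complex I assembly factor. The median ratio was 0.08 over peaks called in both libraries, −0.13 over those called in SCR only and 0.48 over the 3 called in siPiezo2 only. The call enters from the same reads as the ratio, so these medians carry no independent weight. Reads recovered in the peak windows were 0.597 times as many in siPiezo2 as in SCR. Some of these windows overlap, and the full library sizes are not known. The part of depth in the calls was not tested.

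Not every gene of the rule had an assigned peak. GENCODE M21 lists 94 protein-coding genes of these names after merging a second identifier and leaving out 1 gene listed under another symbol, and 68 of them (72.3%) had a peak by identifier, against 59.6% of all 21951 protein-coding genes. The other members are Atp5if1, which the annotation names Atpif1, outside the rule, and Ndufb1, whose identifier it lists as the non-coding Ndufb1-ps. Among the 26 without an assigned peak were Ndufs3, a core subunit of complex I, Sdhd, a membrane anchor of complex II, Uqcrh and Uqcrb of complex III, the testis or muscle forms Cox6b2, Cox7b2, Cox8b and Cox8c, and Ndufa4 and Ndufa4l2. The 3 genes of the rule on the X chromosome, Ndufa1, Ndufb11 and Cox7b, had none, while 1058 peaks of the table lay on X.

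Some of these genes start back to back with a neighbour whose start had a peak. Of the 26, 10 had a protein-coding neighbour on the other strand with its start within 1 kb upstream, and at 9 of those the table gives a start-site peak to the neighbour. Uqcrh shares such a start region with Lrrc41 (density 55.8 in SCR and 52.6 in siPiezo2), Ndufa4 with Phf14 (59.2 and 68.2), Ndufv3 with Wdr4 (70.9 and 71.3), Ndufa8 with Morn5 (25.8 and 28.1) and Atp5h with Kctd2 (40.2 and 43.8). Values differed more between the libraries at the starts shared by Ndufb3 with Fam126b (28.2 and 13.05) and Sdhd with Timm8b (40.2 and 27.4), and were 42.95 and 32.7 for Uqcr10 with Zmat5 and 41.3 and 35.3 for Ndufb9 with Tatdn1. A peak nearest to the start of Uqcrb is assigned to Ramacl. The table gives a peak to 1 gene, so for these genes an assigned peak and an accessible start are different things. Among members with a matching identifier, 12 of 69 (17.4%) had such a back-to-back neighbour, against 7.79% of 13088 genes with a peak and 8.96% of cytosolic ribosomal protein genes.

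Accessibility at the respiratory chain genes differed little between the SCR and siPiezo2 libraries. The median ratio over the 70 genes was 0.02 (quartiles −0.20 and 0.19), with 32 genes below 0 and 38 above. In a bulk library, a different share of cells with open chromatin and a different openness per cell cannot be told apart. Genes with a promoter peak had a median of −0.07, cytosolic ribosomal protein genes −0.04 and mitochondrial ribosomal protein genes −0.01. The member median was 0.11 above that of all genes. The gap was also 0.11 under every scaling of the libraries tried, while the zero of the scale moved by up to 0.14. A scaling moves all genes by nearly the same amount, so the gap could hardly change with it. With promoter peaks alone the gap was 0.04 (medians 0.01 and −0.03). It was 0.07 with the strongest peak of each gene and 0.08 with peaks called in both libraries. The 71 peaks near a start had a median of 0.02, against −0.04 for all peaks near a start, and the 17 beyond 1 kb had −0.06, against −0.17 for all peaks beyond 1 kb.

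**Figure D3:**
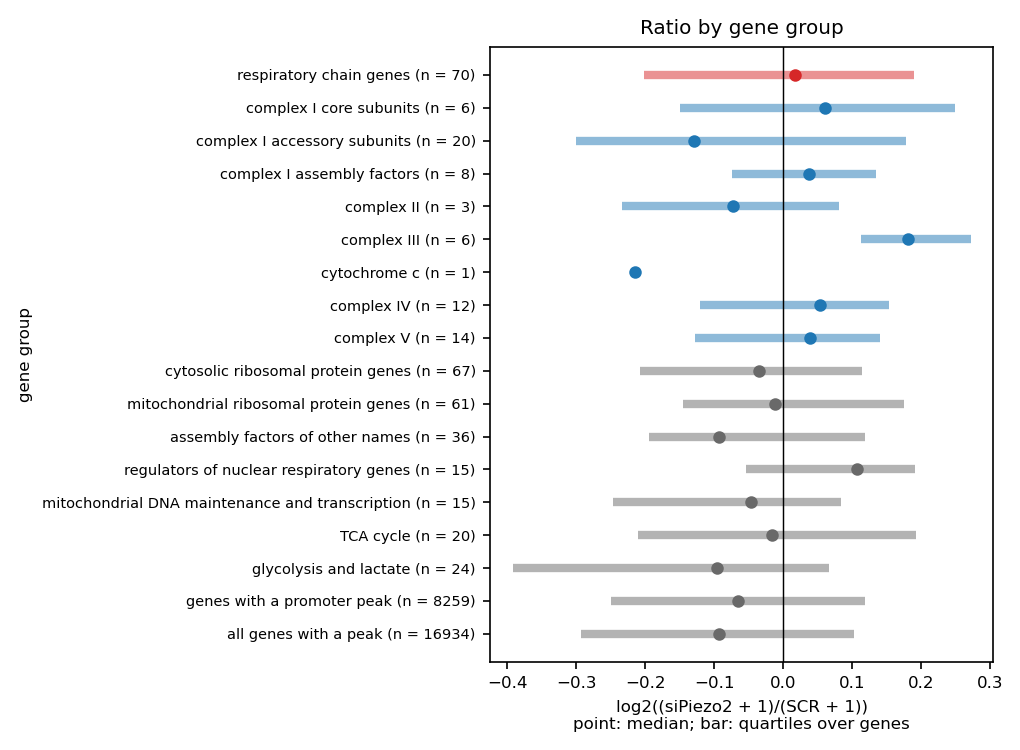
Median (point) and quartiles (bar) of log2((siPiezo2 + 1)/(SCR + 1)) over genes (horizontal axis) for all respiratory chain genes, their complexes, related gene groups and all genes with a peak (rows). The respiratory chain median is 0.02 and that of all genes −0.09; among the complexes, complex III is highest at 0.18 and cytochrome c, a single gene, lowest at −0.22.

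Of the 70 genes, 3 (4.29%) were lower and 1 (1.43%) higher in siPiezo2 past 1.5-fold. The background over all genes was 6.21% lower and 1.54% higher, and over genes with a promoter peak 4.01% and 1.14%. The direction of both counts rests on the scaling. With median-of-ratios scaling the members were 1 lower and 3 higher, and the background 3.42% and 3.83%. The member split was the same with trimmed mean scaling (background 3.38% and 3.89%) and with recovered reads at the same total (3.02% and 4.32%). The member shares were near these backgrounds and are no result about the group. Read intervals lay wholly below 0 for the same 3 genes and wholly above 0 for the same 1 gene, against 15.8% below and 4.68% above over all genes. An interval leaves 0 more easily with more reads, and all genes had a median of 120 reads in SCR against 84.5 for the members. Among genes with 1 peak, 651 of 8320 had an interval below 0 and 360 above. Peak by peak, 5 of 88 were lower and 1 was higher, against 12.2% and 2.82% of all assigned peaks, and of the 48 promoter-class peaks 0 were lower and 1, that of Ndufb5, was higher, against 5.86% and 1.98% of all promoter-class peaks.

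Cox7c, which encodes a small structural subunit of complex IV, had the lowest ratio. Its 1 peak, in the 5′ UTR at chr13:86194800-86195144 of the table, gave 35.1 reads per kb in SCR and 17.0 in siPiezo2 (84 and 27 reads), for a ratio of −1.01 (interval −1.73 to −0.41). This was the only member gene past 2-fold. Ndufa12, a complex I accessory subunit, had 35.5 in SCR and 22.1 in siPiezo2 at its start (86 and 35 reads), a ratio of −0.66 (interval −1.30 to −0.10). Both lay below the median strength of the members and are named because of their values. At the peaks called in both libraries the spread exceeded counting error by a variance factor of 2.15, taken from the median. With that factor the interval of Cox7c stayed below 0 and that of Ndufa12 did not (−1.52 to 0.15). Taken from the mean the factor was 4.75, and the wider intervals it would give were not computed.

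Ndufa10, another accessory subunit of complex I, was lower in siPiezo2 as a sum, but its peaks differed in direction. Summed over its 3 peaks it had 90.0 in SCR and 55.8 in siPiezo2, a ratio of −0.68 (interval −1.06 to −0.33). The peak in the last intron at chr1:92376009-92376448 had 53.2 in SCR and 15.99 in siPiezo2 (130 and 25 reads), a ratio of −1.67 (interval −2.41 to −1.11) and the lowest of all 88 peaks. The annotation places it 12211 bp from a start that is not the one at the start peak. The peak at its start differed the other way, with 17.6 in SCR and 25.1 in siPiezo2 (41 reads in each), a ratio of 0.49 (interval −0.15 to 1.18). The summed value of this gene therefore follows the stronger, intronic peak.

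Ndufb5, a further accessory subunit, was the only member gene higher past 1.5-fold. Its promoter peak at chr3:32790531-32791329 had 56.4 in SCR and 91.1 in siPiezo2 (149 and 136 reads), a ratio of 0.68 (interval 0.35 to 1.04, and 0.20 to 1.18 with the added variance). Ndufb5 and Cox7c were past 1.5-fold in these directions under each of the 4 other scalings for which the count was made, and Ndufa10 and Ndufa12 under none of them. Under 3 of the 4, Atp5po, a stalk subunit of ATP synthase (21.4 in SCR and 29.8 in siPiezo2), and Ndufc2 (18.7 and 26.4) were higher past 1.5-fold.

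**Figure D4:**
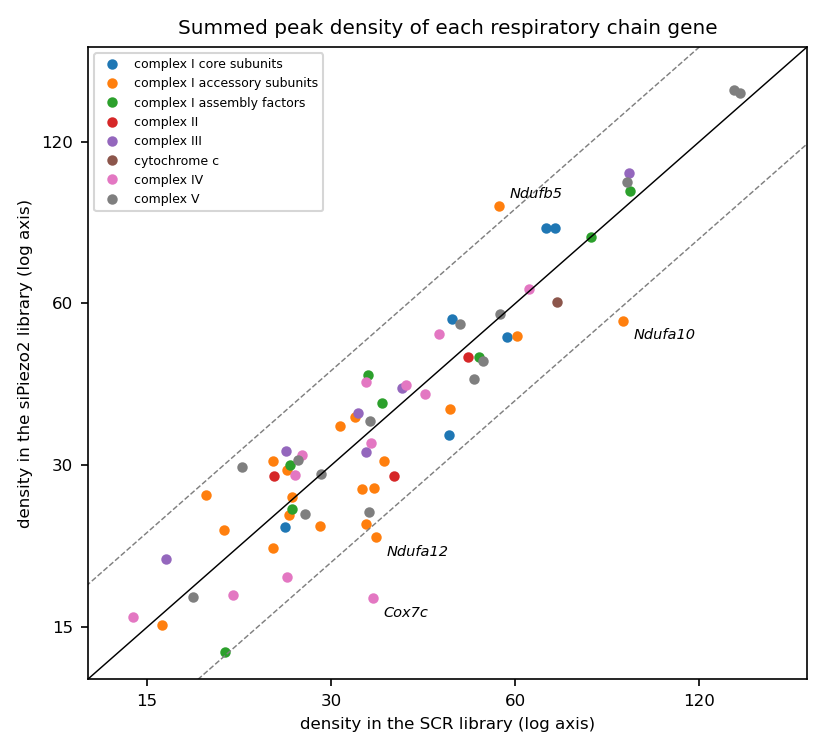
Density of each of the 70 genes in SCR (horizontal, log axis) and siPiezo2 (vertical, log axis), coloured by complex. The solid line marks equal densities and the dashed lines ratios of 0.66 and 1.5; Cox7c, Ndufa10 and Ndufa12 lie below the band and Ndufb5 above it, as judged with the pseudocount of 1.

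In complex I the core subunits, the accessory subunits and the assembly factors had different medians but overlapping ranges. The 6 core genes had a median of 0.06, between −0.44 and 0.29. Ndufs8, an iron-sulfur subunit, had 67.4 in SCR and 82.8 in siPiezo2 (0.29), and Ndufv1, which carries the NADH site, had 69.6 and 82.9 (0.25). Ndufv2, its partner in the NADH module, had 46.7 and 34.1 (−0.44). All 3 intervals crossed 0.

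The 20 accessory genes had a median of −0.13, with 12 below 0. This median lay 0.04 below that of all genes, and it turned positive (0.0045, 0.0080 and 0.048) under 3 of the 5 other scalings. Past 1.5-fold 2 of the 20 were lower and 1 higher, against 6.21% and 1.54% of all genes. The 2 lower ones, Ndufa10 and Ndufa12, were so under none of the 4 other scalings for which the count was made. Ndufb2 had 46.8 in SCR and 38.1 in siPiezo2 (−0.29) and Ndufb1 had 36.6 and 30.5 (−0.25). The 8 assembly factors, which help build the complex without staying in it, had a median of 0.04, and all 8 had a promoter-class peak. Ndufaf7, a methyltransferase, was highest at 34.5 and 44.2 (0.35). Ndufaf2, with 4 peaks spread over a long gene, had 92.4 and 97.0 (0.07), and its promoter peak 35.6 and 35.7.

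Complex II, which also works in the TCA cycle, was represented by 3 genes. Sdha had 38.0 in SCR and 28.6 in siPiezo2 (−0.40, interval −0.95 to 0.12). This is the sum of a first-intron peak near its start with 22.5 and 13.5 and a peak annotated as promoter with 15.5 and 15.1. On this minus-strand gene the latter lies downstream of the first-intron peak, so its annotation refers to another start. Sdhb, the iron-sulfur subunit, had 50.1 and 47.6 (−0.07), and Sdhc, a membrane anchor, had 24.2 and 28.7 (0.24). The genes of this complex differed in sign, and all 3 intervals crossed 0.

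Complex III had the highest median of the complexes, 0.18 over 6 genes, with 5 above 0. With only peaks called in both libraries, the median of the complex I core subunits was higher than that of complex III. Uqcrq, a ubiquinone-binding subunit and the strongest of them, had 92.1 in SCR and 105 in siPiezo2 (0.19, interval −0.11 to 0.48) over 2 peaks whose windows overlap, and 48.6 and 59.0 in the first alone. Uqcrfs1, the Rieske iron-sulfur protein, had 0.33 and Uqcrc1, a core protein, 0.30; both are given for the range. Cyc1, the cytochrome c1 subunit, had 34.2 and 31.7 (−0.11) and was the lowest. Every interval in complex III crossed 0. Cycs, cytochrome c itself, had 70.3 and 60.4 (−0.22, interval −0.60 to 0.15). Its promoter peak had 54.4 and 51.8, and a downstream peak 15.9 and 8.52.

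Complex IV had a median of 0.05 over 12 genes, between −1.01 (Cox7c) and 0.32. Where a widely expressed and a heart and muscle form are known, the widely expressed form had its peak at the start and the muscle form had a weaker peak or none. Cox7a2 had 34.1 in SCR and 42.8 in siPiezo2 (0.32), and the muscle form Cox7a1 had 25.4 and 18.6 (−0.43). The intervals, −0.16 to 0.81 and −1.14 to 0.20, crossed 0 and overlapped. Cox7a2l, which acts in joining complexes III and IV, had 34.9 and 33.0 (−0.08). Cox6a1 had 39.8 and 42.4 (0.09) over 2 peaks whose windows overlap, of which the promoter peak had 19.3 and 20.8, and the muscle form Cox6a2 had only a peak at −1971 bp from its start, with 14.2 and 15.7, the weakest of all member genes in SCR. Cox4i1 had a promoter peak with 26.2 and 28.8 (0.13), and Cox4i2, known from lung and low oxygen, only a peak in an intron with 20.7 and 17.2 (−0.26). Cox8a had 63.1 and 63.8 (0.02) and Cox6b1 had 42.7 and 40.6 (−0.07), while no peak was assigned to Cox8b, Cox8c or Cox6b2.

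Complex V had a median of 0.04 over 14 genes, between −0.47 and 0.46. Atp5mc2 had 140 in SCR and 148 in siPiezo2 (0.08, interval −0.17 to 0.32) over 4 peaks, and 97.3 and 102 over the 3 whose windows do not overlap. The other genes of the membrane ring, which encode the same mature protein, were Atp5mc1 with 91.3 and 101 (0.14) from a single promoter peak, and Atp5mc3 with 27.1 and 24.3 (−0.15). The ring genes thus spanned a wide range of density in both libraries, and their ratios differed in sign. Atp5f1a, the catalytic head's alpha subunit, had 51.3 and 43.5 (−0.23) over 2 peaks whose windows overlap, with 25.3 and 21.7 (−0.21) in the first alone, and Atp5if1, the inhibitor of ATP hydrolysis, had 26.5 and 30.7 (0.21). Every interval in complex V crossed 0.

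**Figure D5:**
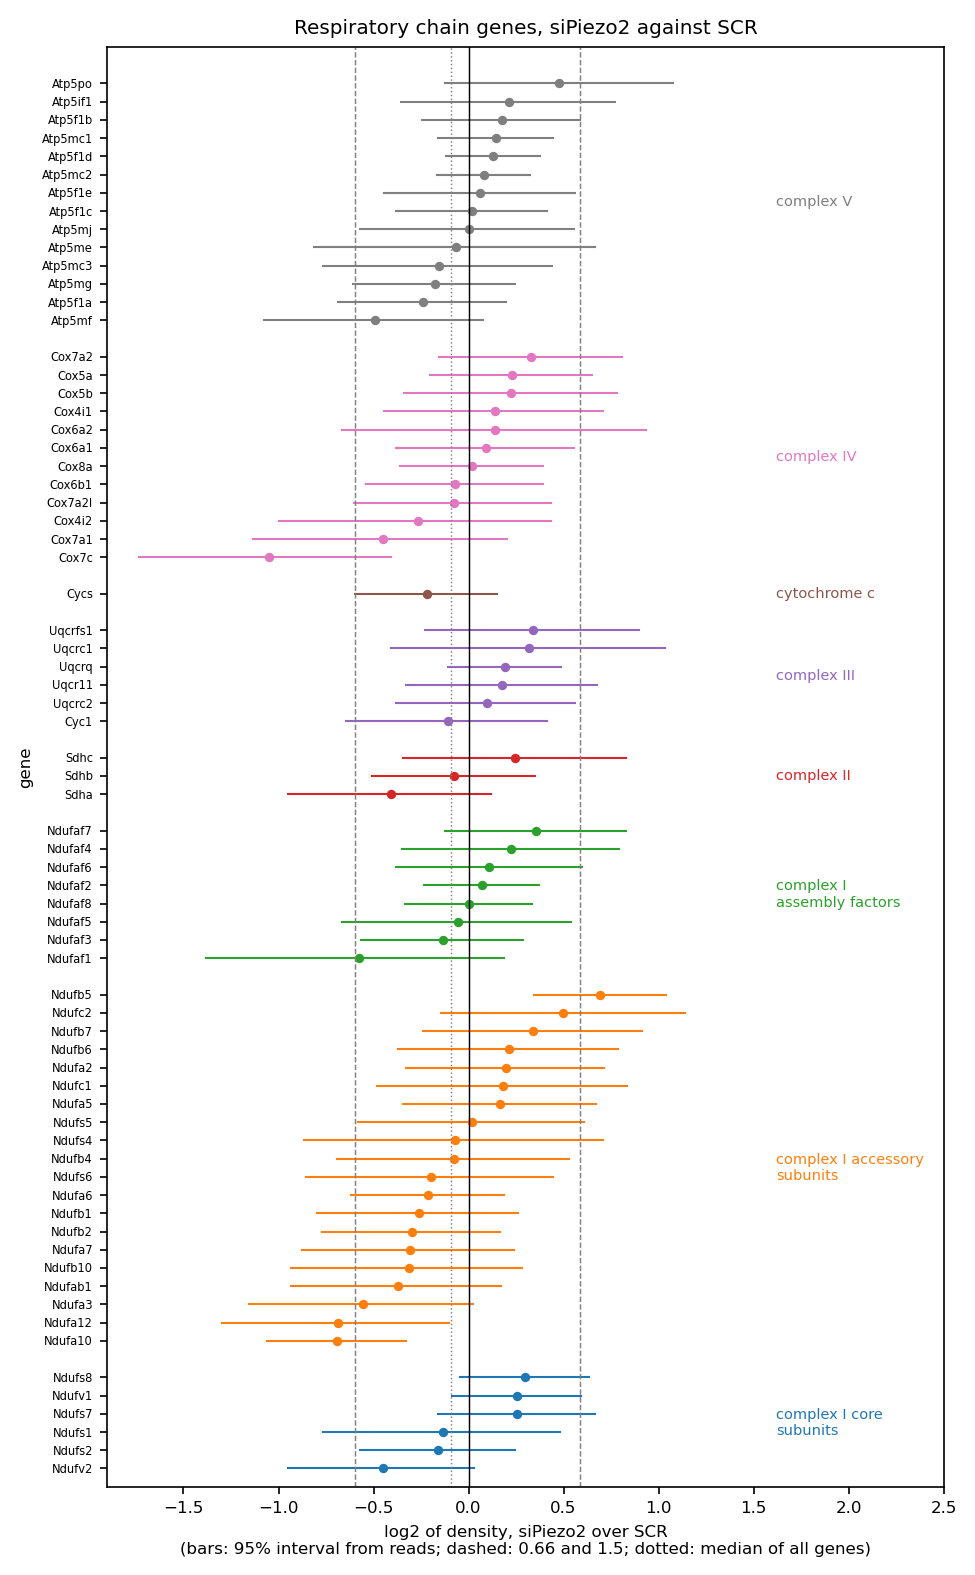
log2 ratio of density, siPiezo2 over SCR without a pseudocount (horizontal axis), of each of the 70 genes (rows), grouped and coloured by complex; points are the ratios and lines the exact binomial 95% intervals from reads. Dashed lines mark ratios of 0.66 and 1.5 and the dotted line the median of all genes; only Cox7c, Ndufa10, Ndufa12 and Ndufb5 have intervals that leave 0 out.

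Strength and ratio were nearly unrelated among the members after the authors' normalization. That normalization takes out a fitted trend of ratio on strength, so a correlation near 0 was largely set by it. The Spearman correlation over the 70 genes between mean density and ratio was 0.10, and over all 16934 genes 0.03; both are descriptions over genes of the same 2 libraries. The 35 genes at or above the median strength (a mean density of 33.4) had a median ratio of 0.07, and the 35 below it −0.06.

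Peaks were assigned to 15 of 16 listed regulators of the respiratory genes, with a median ratio of 0.11. None was past 1.5-fold, against 6.21% lower and 1.54% higher over all genes. Under each of 4 other scalings 1 regulator was higher past 1.5-fold, Sp1 in 3 of them and Esrrb with recovered reads at the same total. Ppargc1a, the coactivator of mitochondrial biogenesis, had 46.1 in SCR and 52.7 in siPiezo2 (0.19), and Ppargc1b had 94.4 and 92.6 (−0.03). Nrf1 had 71.1 and 76.6 (0.11), Gabpa 58.3 and 65.0 (0.15), its partner Gabpb1 90.3 and 67.5 (−0.41, interval −0.77 to −0.08) and Esrra, an orphan receptor at these genes, 88.0 and 94.97 (0.11). Yy1 was lowest at 61.7 and 44.7 (−0.45, interval −0.89 to −0.05), and Sp1 highest at 319 and 459 (0.52, interval 0.37 to 0.67). With the added variance no interval of a regulator lay below 0, and 1, that of Sp1, lay above 0.

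Genes that keep and read mitochondrial DNA had a median of −0.05 (15 of 18 with peaks), with 1 lower and 1 higher past 1.5-fold, against 6.21% and 1.54% of all genes. With recovered reads at the same total 0 were lower and 2 higher, Mterf4 and Ssbp1. Tfam, which packages that DNA, had 50.9 and 53.9 (0.08). Tfb1m, a ribosomal RNA methyltransferase of mitochondria, was lowest at 13.8 and 7.29 (−0.84, interval −2.02 to 0.08), and Ssbp1, the single-strand binding protein, highest at 16.3 and 25.6 (0.62, interval −0.02 to 1.32). Assembly factors with other names had a median of −0.09 (36 of 51 with peaks), with 1 lower and 0 higher past 1.5-fold. With median-of-ratios or trimmed mean scaling 0 were lower and 1, Taco1, was higher, and at the same total density there were 0 in either direction. Their lowest was Coa6, a copper factor of complex IV, at 111 and 68.8 (−0.68, interval −1.03 to −0.36), and their highest Taco1, a translational activator of a mitochondrial Cox gene, at 31.1 and 43.9 (0.49, interval 0.01 to 0.99). With the added variance 1 interval among these assembly factors lay below 0 and none above 0.

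TCA cycle genes had a median of −0.02 (20 of 21 with peaks) and glycolysis genes −0.10 (24 of 25). None was past 1.5-fold in either list, against 6.21% lower and 1.54% higher over all genes. With the libraries scaled by median of ratios, trimmed mean or total density, 1 gene of each list, Pdhb and Pdk4, was higher past 1.5-fold. In the TCA list Pdhb, a subunit of pyruvate dehydrogenase, was highest at 77.1 and 116 (0.58, interval 0.29 to 0.89). In the glycolysis list Gpi1 was lowest at 146 and 97.3 (−0.58, interval −0.87 to −0.30), and Pdk4, a kinase that switches pyruvate dehydrogenase off, highest at 55.9 and 83.4 (0.57, interval 0.22 to 0.93). The differences between these list medians and the member median were not tested, since there was 1 library per condition.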

How the data were processed

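ATAC-seq was analysed from a table of peaks deposited for 1 SCR and 1 siPiezo2 library of TGF-β-treated mouse cardiac fibroblasts. Per the labels, BWA 0.7.12 and mm10 were used; the scaffold names and gene coordinates in the table are those of GRCm39, so table positions are printed as deposited and no sequence was read from them. The methods describe minced tissue and another kit than the labels. The authors deposited a normalized signal per peak and library (read density, unit reads per kb), its log2 ratio and log2 mean, and each peak's annotation; the log2 columns equal those of the densities. The authors' own fold changes and p-values were deposited as well and not used. Peaks were called by the authors in each library.

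Densities were summed per gene symbol and compared as log2 with a pseudocount of 1; thresholds were ratios of 0.66 and 1.5. Undoing the authors' fit of ratio on strength gave whole numbers (tolerance 0.05) in 100% of peaks; 1 was taken off each as an assumed offset, which wholeness cannot check. Exact (Clopper-Pearson) 95% intervals were centred on the density ratio without a pseudocount. No test between conditions is possible with 1 library each. Intervals cover counting error only, and reads are not known to be independent molecules. The reading and interval steps were tested on simulated data. Motifs were searched on both strands of RefSeq promoter windows. Back-to-back genes were found from the strands and start positions in GENCODE M21 (GRCm38).

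Genes named in the text were the members past 1.5-fold or among the 5 lowest and 5 highest ratios at or above the median strength, the strongest of each role, complex II, Cycs, Cyc1, isoform families, the 3 with most peaks, and the ends of each list; Cox7c, Ndufa12, Uqcrfs1, Uqcrc1, Atp5po, Ndufc2, Gabpb1, Esrrb and Mterf4 were named after their values were seen. Of the genes these rules name, 1 is not reported here. The members and lists were chosen with earlier results of these data known. Alternatives were other scalings, a pseudocount of 0.1, other peak sets, a 2-fold threshold and 99% intervals. Python with numpy, pandas and scipy were used.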

Additional observations from a re-analysis of the deposited data

How the results depend on the processing

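The median over the 70 genes was 0.15 with median-of-ratios scaling, 0.16 with trimmed mean scaling and 0.14 with recovered reads at the same total, where the median of all genes moved by as much; that of complex V was 0.18 with both of the first. The count of 4 genes past 1.5-fold became 1 at 2-fold, 2 with libraries at the same total density and 1 with promoter peaks only (48 genes). The share of peaks in the promoter class, 54.5%, was 80.7% for any peak within 1 kb of a start and 69.2% among peaks called in both libraries. With median-of-ratios scaling, trimmed mean scaling and recovered reads at the same total the count stayed 4 but its split turned from 3 lower and 1 higher to 1 lower and 3 higher, with Atp5po and Ndufc2 in place of Ndufa10 and Ndufa12. The 4 genes with an interval off 0 became 5 at the same total of reads, and their split turned from 3 below and 1 above to 2 below and 3 above. The other 101 values for these results stayed within their interval or within 1.5 times the count, among them the number of genes with an interval off 0, which was 3 (2 below and 1 above) at 99% confidence and with the added variance. For single named genes, 288 values stayed within the gene's read interval and 1 did not: Ndufa10 was at −1.67 by its strongest peak. Recovered reads (other than for the intervals), separate windows, the added variance, the offset and the scalings of the other gene lists were chosen after seeing the data. Depth limits single genes: the median interval was 1.05 wide on the log2 scale. No paired analysis was possible because there was 1 library per condition.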
